A study of Mus musculus with 4 samples.

Results

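Transcription factors that direct epidermal differentiation were examined in mice whose basal keratinocytes overproduce either a bone morphogenetic protein (BMP) or its antagonist. The 9 genes were Trp63, Klf4, Klf5, Ovol1, Grhl1, Grhl3, Tfap2a, Cebpa and Cebpb. They were chosen by name, each represented by the probe set that carries its symbol alone, and all 9 of 9 were found among 19938 named genes. Each had 1 probe set. One line of mice overexpressed noggin, an extracellular protein that binds BMPs and keeps them from their receptors, and the other overexpressed BMP4, a secreted BMP ligand. Both transgenes were driven by the K14 promoter, which is active in basal keratinocytes. The tissue was epidermis of glabrous (hairless) hindpaw skin, captured by laser from stained sections as 8 to 10 strips per animal. Each array received the pooled RNA of 3 animals, so that 6 animals per line made 2 arrays of noggin and 2 of BMP4 skin. The sources used here do not give age, sex, strain background or the number of founder lines. Non-transgenic skin was not among the arrays analysed here, and every difference below is noggin minus BMP4 on the log2 scale of normalized probe set intensity.

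Keratinocytes are born in the basal layer and move outwards through the spinous and granular layers, where they stop dividing, switch keratins and assemble the cornified barrier. The protein p63, made from Trp63, maintains the basal compartment and the stratified epithelial identity, and KLF, OVOL, GRHL, AP-2 and C/EBP proteins act with it or after it as cells differentiate. BMP ligands signal through SMAD proteins, which enter the nucleus and bind DNA, and epidermal development is one of the settings in which BMP activity and Trp63 are known to be linked.

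The array medians lay between 6.04 and 6.06 and correlations between arrays, over the named genes, between 0.985 and 0.993. BMP4 replicate 1 stood apart, where 43 genes exceeded every other array by over 1 log2 unit and 44 were lower than every other by as much, against at most 13 in either direction elsewhere. Keratinocyte genes were bright on every array, which goes with epidermis but does not check the hairless hindpaw site. The basal keratin Krt14 read 12.25 on both noggin arrays and 12.42 and 12.36 on the BMP4 arrays, and the spinous keratin Krt10 read 13.33, 13.36, 13.27 and 13.32 in the same order. The upper quartiles of the arrays were 7.66 to 7.71. Neither transgene passed between the lines (limma, adjusted p = 0.946 for Nog and 0.874 for Bmp4). Both were lower on both noggin arrays than on both BMP4 arrays, as were 17.9% of named genes. For Nog this order is opposite to the label. Bmp4 was 1.24-fold higher in BMP4, and 7.68% of named genes had a larger absolute difference. Nog read 5.92 and 5.99 on the noggin arrays and 6.13 and 6.04 on the BMP4 arrays, and Bmp4 read 7.77 and 7.86 on the noggin arrays and 8.22 and 8.03 on the BMP4 arrays. The sources used here do not say which stretch of either transcript its transgene contains, so these probe sets do not check the labels.

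None of the 9 factors passed the test between noggin and BMP4 epidermis, and all of the measured differences were small. The largest were Klf5, 1.11-fold higher in noggin, Cebpa, 1.10-fold higher in noggin, and Ovol1, 1.10-fold higher in BMP4. The mean was higher in noggin for 6 factors (Klf4, Klf5, Grhl3, Tfap2a, Cebpa and Cebpb), as for 47.8% of named genes, and higher in BMP4 for 3 (Trp63, Ovol1 and Grhl1), as for 52.2%. In limma 0 of 9 had an adjusted p below 0.05, where 0% of all 35556 probe sets did, and 0 of 9 had an unadjusted p below 0.05, where 4.28% of named genes and 5.61% of probe sets did. Adjusted p over all probe sets ran from 0.939 to 0.998 among the 9. For a single gene, 2 arrays against 2 allow no exact two-sided permutation p smaller than 0.333.

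The interval of each difference gives its precision on these arrays, gene by gene and from 2 pools per line. In limma its width draws on the spread of all probe sets as well as on the gene's own. The 95% intervals from limma lay within 1.5-fold in either direction for 9 of 9 factors, which was also true of 79% of named genes. The lowest bound was that of Ovol1, at -0.39, a 1.31-fold excess in BMP4, and the highest was that of Cebpa, at 0.44, a 1.36-fold excess in noggin. Smaller differences are not resolved by 4 arrays, and a p above the threshold does not show that the lines were alike.

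**Figure D1:**
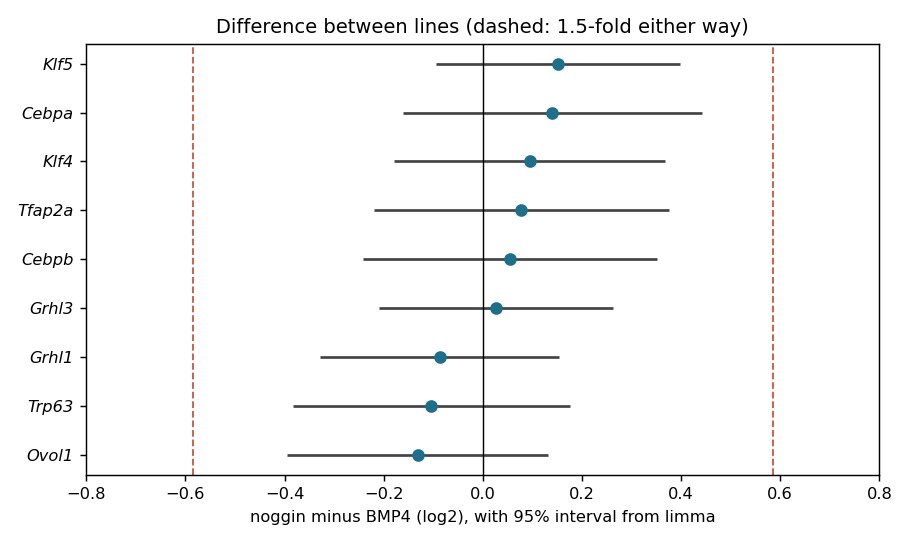
Difference of group means, noggin minus BMP4 on the log2 scale (horizontal), for each of the 9 factors (vertical), with the 95% interval from limma, 2 arrays per group. Every interval crosses 0 and stays inside the dashed lines at 1.5-fold, from -0.39 for Ovol1 to 0.44 for Cebpa.

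Trp63 encodes p63, the regulator of the basal keratinocyte. Its log2 values were 10.76 and 10.87 on noggin arrays 1 and 2 and 10.98 and 10.86 on BMP4 arrays 1 and 2. Noggin replicate 1 was the lowest and BMP4 replicate 1 the highest, while the replicate 2 arrays of both lines were nearly level and the groups overlapped. The means were 10.82 ± 0.080 (SD, n = 2) and 10.92 ± 0.083 (SD, n = 2), which differ by -0.10, and the 95% interval reached from -0.38 to 0.18 (limma, adjusted p = 0.963). Without noggin replicate 1 it was -0.048 and without BMP4 replicate 1 it was -0.045. The gene makes several isoforms from alternative promoters, and which of them the probe set reads was not examined.

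The Krüppel-like factors Klf4 and Klf5 are zinc finger proteins with different places in the epidermis. Klf4 acts in the differentiating layers and is needed for the barrier, and Klf5 is a factor of proliferating basal cells. Klf4 read 10.07 and 9.96 in noggin and 9.86 and 9.97 in BMP4. Here too the replicate 1 arrays held the highest and the lowest value, and the replicate 2 arrays lay between them. The difference was 0.09, from -0.18 to 0.37 (limma, adjusted p = 0.967). Omitting either replicate 1 array gave 0.039 (noggin) or 0.042 (BMP4).

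Klf5 read 10.06 and 10.15 in noggin and 9.96 and 9.94 in BMP4. The noggin arrays exceeded the BMP4 arrays without overlap, with 0.098 between the nearest arrays. The means were 10.11 ± 0.061 (SD, n = 2) and 9.95 ± 0.014 (SD, n = 2), and the difference of 0.15 had an interval from -0.10 to 0.40 (limma, adjusted p = 0.939, the smallest of the 9). Leaving out 1 array at a time gave 0.11 to 0.19.

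Ovol1 is a zinc finger repressor that restrains keratinocyte division as differentiation begins. It read 8.90 and 9.0 in noggin and 9.13 and 9.04 in BMP4. The noggin arrays were below the BMP4 arrays without overlap, with 0.039 between the nearest arrays, and the extremes were again the replicate 1 arrays. The means were 8.95 ± 0.069 (SD, n = 2) and 9.08 ± 0.062 (SD, n = 2), the difference -0.13 and its interval from -0.39 to 0.13 (limma, adjusted p = 0.947). It ranged from -0.18 to -0.082 when 1 array was left out.

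The grainyhead-like factors Grhl1 and Grhl3 act on cell adhesion and barrier genes. Grhl1, which is known to activate a desmosomal cadherin, read 9.04 and 9.02 in noggin and 9.15 and 9.08 in BMP4, again without overlap and with noggin lower. The difference was -0.09, from -0.33 to 0.15 (limma, adjusted p = 0.964), and -0.053 without BMP4 replicate 1. Grhl3, needed for barrier formation before birth, read 9.75 and 9.75 in noggin and 9.70 and 9.75 in BMP4. Its 4 arrays spanned 0.052, and 98.4% of named genes had a wider range. The groups of Grhl3 were counted as not overlapping only because the nearest arrays were 2e-05 apart.

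Tfap2a encodes AP-2 alpha, a factor of surface ectoderm and keratinocyte genes. It read 9.59 and 9.77 in noggin and 9.63 and 9.57 in BMP4, so noggin replicate 2 alone stood high and the groups overlapped. The difference of 0.08, from -0.22 to 0.37 (limma, adjusted p = 0.983), was -0.015 without that array.

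The C/EBP proteins Cebpa and Cebpb are basic leucine zipper factors that promote the exit from division and the early differentiation keratins. Cebpa read 10.41 and 10.28 in noggin and 10.13 and 10.28 in BMP4. The replicate 2 arrays differed by only 6e-04 and noggin replicate 1 and BMP4 replicate 1 lay on either side of them, 0.28 apart, the widest range of the 9. The difference was 0.14, from -0.16 to 0.44 (limma, adjusted p = 0.951), and it was 0.067 without BMP4 replicate 1. Cebpb read 7.85 and 7.66 in noggin and 7.68 and 7.71 in BMP4. Noggin replicate 1 was the highest and noggin replicate 2 the lowest of the 4, so the gap within the noggin line, 0.19, was larger than the difference between lines, 0.056 (limma, adjusted p = 0.990). Without noggin replicate 1 the Cebpb difference was -0.039.

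**Figure D2:**
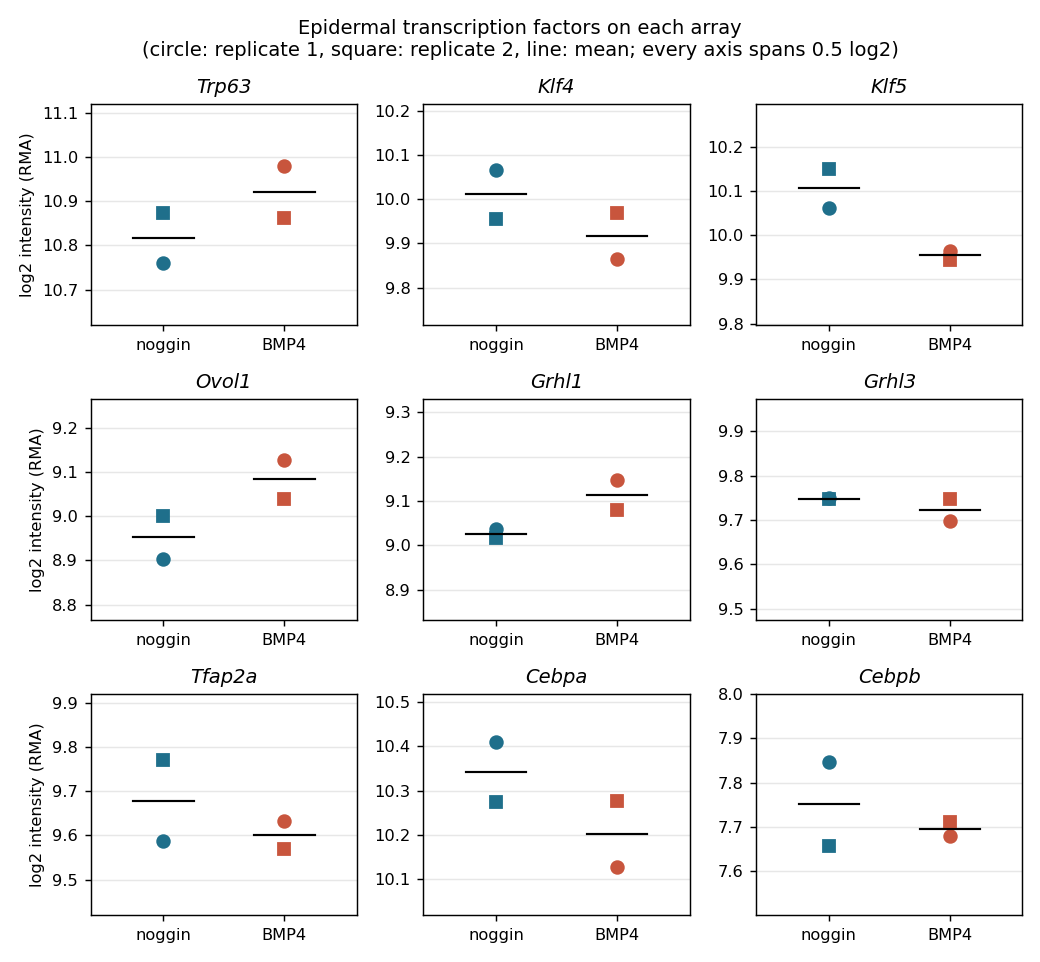
Log2 intensity (vertical) of each factor on the noggin and BMP4 arrays (horizontal), with replicate 1 as circles, replicate 2 as squares and the group mean as a line. Each axis spans 0.5 log2 units, and the groups are apart only for Klf5, Ovol1, Grhl1 and, by 2e-05, Grhl3.

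The stretches just before the start sites were read for motifs of BMP-activated SMADs, because the compared lines differ in BMP ligand and antagonist. Motifs of AP-2, GRHL and C/EBP factors were read too, and none of p63, KLF or OVOL proteins was searched. RefSeq windows of build GRCm38.p6 were matched for 6 of the 9 genes, 8 windows in all, and none for Trp63, Klf5 or Ovol1. The 250 bases before each start were searched on both strands. The letters GGCGCC, a GC-rich motif of BMP SMADs that reads the same on both strands, occurred in 2 of 8, beside 9.59% of all 32851 windows and 26.1% of those with at least 60% G and C. The AP-2 motif GCCNNNGGC, also its own reverse complement, occurred in 2 of 8, beside 13.7% and 30.3%. The GRHL motif AACNNGTT and the C/EBP motif TTNNGCAA occurred in 0 of 8, beside 3.64% and 9.56% of all windows and 1.88% and 4.02% of the GC-rich ones. No match overlapped another. The windows holding GGCGCC are shown with the matches in capitals, at chr12:24572037-24572286 on the plus strand for Grhl1 and chr7:35119043-35119292 on the plus strand for Cebpa.
Grhl1: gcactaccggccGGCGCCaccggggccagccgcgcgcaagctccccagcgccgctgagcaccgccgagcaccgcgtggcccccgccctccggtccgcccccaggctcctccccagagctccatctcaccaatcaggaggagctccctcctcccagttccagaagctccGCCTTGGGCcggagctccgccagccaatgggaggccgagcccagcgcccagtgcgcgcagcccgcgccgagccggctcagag
Cebpa: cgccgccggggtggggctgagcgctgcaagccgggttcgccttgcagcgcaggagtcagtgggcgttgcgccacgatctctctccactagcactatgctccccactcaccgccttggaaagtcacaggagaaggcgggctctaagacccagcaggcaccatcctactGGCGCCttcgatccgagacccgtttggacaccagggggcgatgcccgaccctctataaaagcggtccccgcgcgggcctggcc
In this Grhl1 window the SMAD letters begin 238 bases before the start and the AP-2 letters, GCCTTGGGC, 82 bases before it. The other Grhl1 window, at chr12:24580469-24580718, held no match of any motif searched. In Cebpa the SMAD letters begin 83 bases before the start. The window of Klf4 held an AP-2 match 9 bases before its start. The Grhl1 mean was higher in BMP4 and the Cebpa mean higher in noggin, and neither passed. A match of letters is a description of the window and does not show binding.

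The groups did not overlap for 4 of 9 factors, and for 33.6% of all named genes. Of the 4, Klf5 and Grhl3 were higher on the noggin arrays, as were 15.7% of named genes, and Ovol1 and Grhl1 lower, as were 17.9%. The difference between lines exceeded the larger gap between replicates for 3 factors, Klf5, Ovol1 and Grhl1. The share of all named genes that do so was not computed, so this count has no background. The median absolute difference of the 9 was 0.094, beside 0.087 over all named genes and 0.093 over the 5339 genes at least as bright as the dimmest group mean of the 9. An absolute difference larger than that of Klf5 was found in 28.0% of named genes. The 9 factors therefore lay in the body of the distribution. Their median range over the 4 arrays was 0.20, beside 0.26 for all named genes, which include dimmer ones. The range of the 5339 brighter genes was not computed. No factor fell below the lower quartile of any array, which was at most 4.72.

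**Figure D3:**
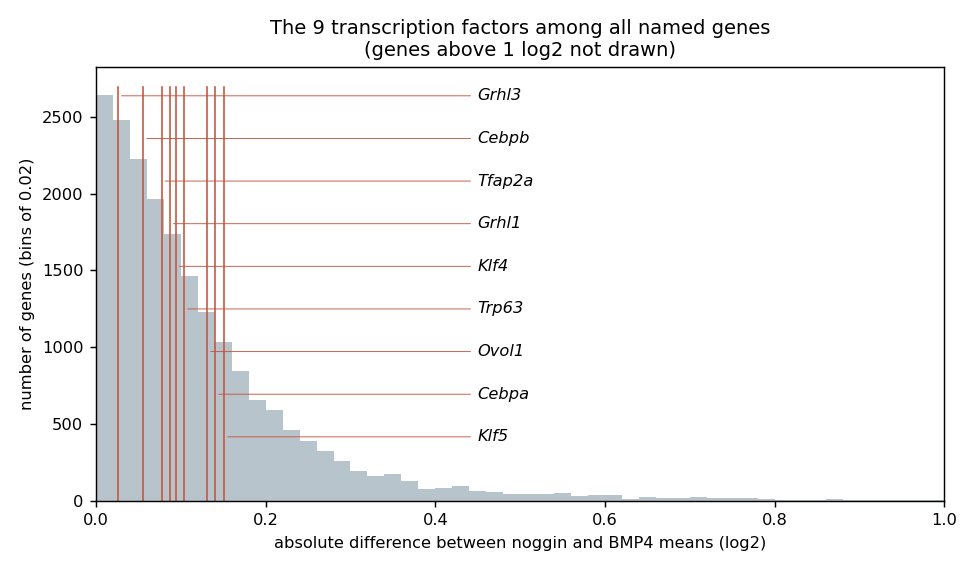
Number of named genes (vertical) by the absolute difference between noggin and BMP4 means in log2 units (horizontal, bins of 0.02), with a line for each of the 9 factors. All 9 lie at or below 0.15, where most of the genes lie, and genes above 1 log2 unit are not drawn.

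The differences of several factors rested on the replicate 1 arrays. Noggin replicate 1 minus BMP4 replicate 1 was -0.22 for Trp63, -0.22 for Ovol1, 0.20 for Klf4 and 0.28 for Cebpa. The same quantity for the replicate 2 arrays was 0.011 for Trp63, -0.039 for Ovol1, -0.014 for Klf4 and -6e-04 for Cebpa. Trp63 and Ovol1 were thus lowest on noggin replicate 1 and highest on BMP4 replicate 1, and Klf4 and Cebpa the reverse. Klf5 and Tfap2a had their larger difference between the replicate 2 arrays, 0.20 for each. The replicate numbers do not pair the pools, so these are differences between single arrays.

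Some gene lists were at their extremes on the same arrays. BMP4 replicate 1 was also the array that stood apart from the others. The share of named genes with this order of arrays was not computed, so the match has no background. Cell cycle genes, relative to each gene's mean, had a median of -0.37 on noggin replicate 1, -0.055 on noggin replicate 2, 0.40 on BMP4 replicate 1 and 0.079 on BMP4 replicate 2. All 23 measured cell cycle genes had their lower mean in noggin, and the median difference was -0.49, ranging from -0.70 without BMP4 replicate 2 to -0.31 without noggin replicate 1. The S-phase cyclin gene Ccna2 read 8.24 and 8.44 in noggin and 9.09 and 8.98 in BMP4, and the mitotic kinesin gene Kif20a read 5.89 and 5.71 in noggin and 6.51 and 6.45 in BMP4. None passed over all probe sets (limma, smallest adjusted p = 0.701). An unadjusted p below 0.05 was found for 7 of 23, beside 4.28% of named genes. These genes share arrays and can move together, so they are not 23 separate observations. The part of cell cycle genes in the values of Trp63 and Ovol1 was not tested.

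Sebaceous gland markers had the opposite order, with medians of 0.31, -0.0086, -0.28 and -0.053 on noggin 1, noggin 2, BMP4 1 and BMP4 2. Of 13 measured, 12 had a higher mean in noggin. Their median difference of 0.38 became 0.084 on omitting noggin replicate 1, 0.59 on omitting noggin replicate 2 and 0.14 on omitting BMP4 replicate 1. Cebpa is also a factor of sebocytes and fat cells. The sebaceous markers of smallest p, Plin2 and Mgst1, were 1.69-fold and 1.68-fold higher in noggin, and neither passed (limma, adjusted p = 0.701 and 0.736). Adipocyte markers had a median difference of 0.019, with 7 of 12 higher in noggin, and it ranged from -0.11 without noggin replicate 1 to 0.19 without noggin replicate 2. Skeletal muscle markers had medians of 0.79, -0.10, -0.88 and 0.26 in the same array order, with 19 of 20 higher in noggin. Langerhans cell and macrophage markers had 0.26, 0.41, -0.72 and 0.18, with 16 of 19 higher in noggin. Whether these strips of hairless skin held sebaceous cells was not examined. The part of any of these cell types in the values of Klf4 and Cebpa was not tested. In bulk strips, fewer cells of a type and less RNA per cell cannot be told apart.

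**Figure D4:**
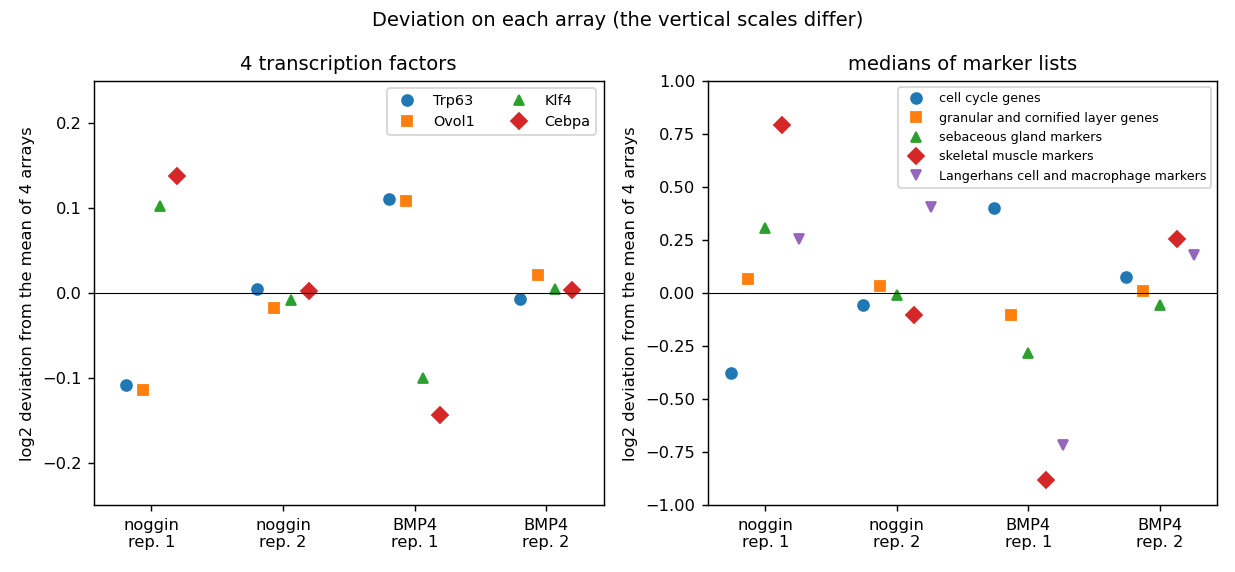
Log2 deviation from the mean of the 4 arrays (vertical) on each array (horizontal) for Trp63, Ovol1, Klf4 and Cebpa, and for the medians of 5 marker lists, with different vertical scales. Trp63, Ovol1 and cell cycle genes are lowest on noggin replicate 1 and highest on BMP4 replicate 1, and Klf4, Cebpa, sebaceous and muscle markers are the reverse.

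Genes of the layers were compared beside the factors. Basal layer genes had a higher mean in BMP4 for 6 of 11 measured, and their median difference was -0.10. In 5 of the 11 the groups were apart with noggin lower, as in 17.9% of named genes, and in 1 with noggin higher, as in 15.7%. The collagen gene Col17a1 of the hemidesmosome read 8.35 and 8.34 in noggin and 8.48 and 8.52 in BMP4. Spinous layer genes had a median difference of 0.033 over 9 genes, and -0.011 without BMP4 replicate 2. Granular and cornified layer genes had a higher mean in noggin for 19 of 24, and their median difference was 0.096. In 12 of the 24 the groups were apart with noggin higher, beside the same 15.7%, and in 1 with noggin lower, beside 17.9%. Loricrin, Lor, the main cornified envelope protein, read 12.61 and 12.57 in noggin and 12.45 and 12.53 in BMP4. The genes of smallest p in that list were Cdsn, 1.26-fold higher in BMP4, and Sprr4, 1.44-fold higher in noggin (limma, adjusted p = 0.848 and 0.874), so none of these layer genes passed.

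Relatives of the 9 factors, from the same protein families, differed by -0.33 to 0.34. Of 29 listed, 28 were measured, with 16 higher and 12 lower in noggin. Their median difference was 0.022, beside -0.0064 over all named genes, and ranged from -0.028 without noggin replicate 1 to 0.036 without BMP4 replicate 2. The groups did not overlap for 11 of 28, or 39.3%, near the 33.6% of all named genes. None passed (limma, smallest adjusted p = 0.874). An unadjusted p below 0.05 was found for 2 of 28, beside 4.28% of named genes. Tfcp2, of the wider grainyhead family, read 6.26 and 6.47 in noggin and 6.70 and 6.69 in BMP4. Klf13 read 6.96 and 6.95 in noggin and 6.74 and 6.60 in BMP4. Klf7 was 1.26-fold higher in noggin and Ovol3 1.13-fold higher in BMP4. Some closest relatives were picked after their values were seen. Grhl2 differed by 0.032 and Tfap2c by -0.11, and Tfap2b by -0.25 and Cebpd by 0.16, with adjusted p of 0.931 or more (limma).

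Other transcription factors of the epidermis differed by -0.30 to 0.59. Of 32 listed, 29 were measured, 19 higher and 10 lower in noggin. Their median difference was 0.10 and their median absolute difference 0.18. Omitting noggin replicate 1, noggin replicate 2 or BMP4 replicate 1 brought the former to 0.041, 0.056 or 0.062. The groups did not overlap for 12 of 29, or 41.4%, beside 33.6% of all named genes. None passed (limma, smallest adjusted p = 0.848). An unadjusted p below 0.05 was found for 4 of 29, beside 4.28% of named genes. Each of those 4 was higher on the noggin arrays, without overlap. A small p from 2 arrays against 2 favours groups that are apart, so this separation adds no support.

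Barx2, a homeobox factor, read 7.41 and 7.81 in noggin and 6.97 and 7.08 in BMP4, a 1.5-fold difference. Ehf, an ETS factor of epithelia, read 9.58 and 9.45 in noggin and 8.87 and 9.16 in BMP4, 1.41-fold. Hopx, a homeodomain protein of differentiating keratinocytes, read 9.07 and 8.99 in noggin and 8.58 and 8.73 in BMP4, 1.30-fold. Nr3c1, the glucocorticoid receptor, was 1.22-fold higher in noggin. BMP4 replicate 1 was the lowest array for Barx2, Ehf and Hopx. Without it the log2 differences were 0.53 for Barx2, 0.36 for Ehf and 0.29 for Hopx. Whether this list differs from the 9 factors was not tested.

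**Figure D5:**
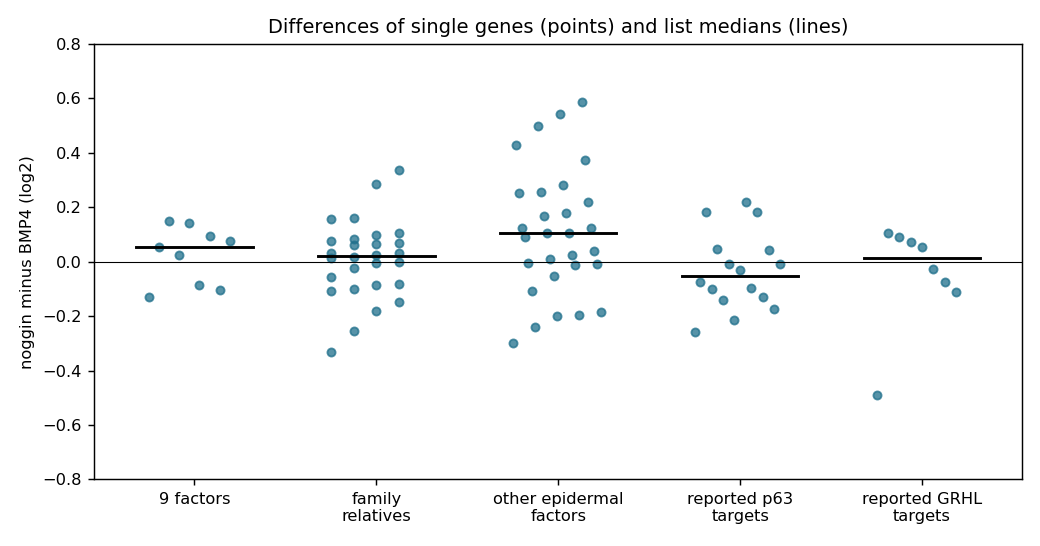
Noggin minus BMP4 on the log2 scale (vertical) for single genes (points) and list medians (lines), by list (horizontal). The 9 factors lie between -0.13 and 0.15, while other epidermal factors reach 0.59 (Barx2) and a reported GRHL target, Arhgef19, -0.49.

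No gene listed as a reported target of these factors passed the test. Of 18 reported p63 targets, 16 were measured, of which 11 had the lower mean in noggin, and the median difference was -0.053, or -0.082 without noggin replicate 2. The groups were apart for 9 of 16, with noggin lower in 6 (17.9% of named genes) and higher in 3 (15.7%). Krt14 was 1.10-fold and the hemidesmosome integrin gene Itgb4 1.13-fold higher in BMP4, and the receptor gene Fgfr3 1.16-fold, while the tight junction gene Cldn1 was 1.13-fold higher in noggin. Krt5, the partner of Krt14, differed by -0.10 and overlapped. None of the 16 had an unadjusted p below 0.05 (limma, smallest adjusted p = 0.927). Several of these genes are also basal layer genes, so both lists share values.

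Of 9 reported GRHL targets, 8 were measured, 4 higher and 4 lower in noggin. The median difference was 0.014, and it ranged from -0.063 without noggin replicate 1 to 0.055 without noggin replicate 2. Arhgef19, a guanine nucleotide exchange factor linked to Grhl3, read 5.38 and 5.39 in noggin and 5.95 and 5.80 in BMP4, 1.40-fold higher in BMP4. It was the only one of the 8 with an unadjusted p below 0.05, beside 4.28% of named genes. Over all probe sets it did not pass (limma, adjusted p = 0.745). Tgm1, the transglutaminase of the cornified envelope and a reported Grhl3 target picked after its value was seen, differed by 0.053. The adhesion genes Cdh1 and Rab25 differed by 0.091 and 0.071. Dsg1b, a desmosomal cadherin, differed by -0.11, and by 0.0058 without BMP4 replicate 1.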

How the data were processed

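Gene expression was measured in laser-captured epidermis on 4 arrays, 2 pools of 3 animals from each line. RNA was amplified by the NuGEN pico protocol and labelled with biotin, per the labels' protocols. The authors deposited log2 intensities per probe set, made with Affymetrix Expression Console and RMA, per the submitters' processing notes, with no version or settings. RMA evens out overall signal between arrays and compresses changes of dim probe sets. The replicates are pools of different animals, and the number of arrays limits the precision.

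The platform table names 21789 probe sets with 1 symbol, 1621 with several and leaves 12146 unnamed here. A gene was represented by its brightest probe set with 1 symbol. Noggin and BMP4 were compared by limma 3.58.1 under R 4.3.3 (two-sided lmFit and eBayes fit, 2 residual and 2.08 prior degrees of freedom) on all 35556 probe sets, with Benjamini-Hochberg adjustment over all of them and a threshold of 0.05. A fold is 2 raised to the difference of means. The code was tested on simulated data. Named genes were the 9 factors, the 4 of smallest p in each list of factors or targets, and, where a list is described gene by gene, the 2 of smallest p of a marker list with Krt5, Krt14, Krt1, Krt10 and Lor. The members, lists and rule were chosen with earlier results of these data known. Of 20 lists beside the 9 factors, those of immediate early genes, hair follicle, sweat gland, fibroblast, neutrophil, T cell, endothelial and melanocyte markers are given in the closing section. Alternatives were other priors, a filter on dim probe sets, other scalings, averaging a gene's probe sets, the replicate number as a block, and leaving out each array. Plots were made in Python 3.11.15 with matplotlib 3.10.9.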

Additional observations from a re-analysis of the deposited data

How the results depend on the processing

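All 9 factors stayed above the threshold under each of the 13 alternatives, the smallest adjusted p being 0.807 (limma), and the largest absolute difference was 0.21. Of 117 recomputed differences 2 turned sign: leaving out 1 array gave -0.015 to 0.17 for Tfap2a (lowest without noggin replicate 2) and -0.039 to 0.15 for Cebpb (lowest without noggin replicate 1). Among other named genes the range was -0.23 to 0.0058 for Dsg1b (highest without BMP4 replicate 1) and -0.011 to 0.082 for Krt1 (lowest without BMP4 replicate 2). The median difference of the 9, 0.056, ranged from 0.024 to 0.050 on leaving out 1 array. Limma called 0 probe sets, and 1994 at an unadjusted p below 0.05. It also called 0 under every alternative fit and at an adjusted p below 0.1. The replicate number as a block, which the correlation of deviations of same-numbered arrays (-0.12) does not support as a pairing, gave 0 calls and an adjusted p of 1 for all 9. The crossed pairing, chosen after seeing the data, also gave 0 calls. Scaling moved the median of all probe sets by less than 0.1 in all cases, to 0.0013 at most with cyclic loess. Over all lists 24 medians moved by more than the spread between arrays and 249 did not, and the cause was not tested. Detection above background is unknown, which limits dim genes such as Arhgef19 more than the 9 factors.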

Other observations

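The remaining marker lists, given as values, did not pass for any gene over all probe sets (limma). Immediate early genes had a higher mean in noggin for 11 of 15, with a median difference of 0.062, or -0.015 on omitting noggin replicate 1 and 0.0081 on omitting BMP4 replicate 2. Of these, Fosl1, a Fos family member of keratinocytes, read 7.44 and 7.28 in noggin and 6.68 and 6.85 in BMP4, and Fosb read 8.05 and 7.69 in noggin and 7.12 and 7.34 in BMP4. Hair follicle markers had a lower mean in noggin for 19 of 19, with a median difference of -0.20. That median ranged from -0.45 without BMP4 replicate 2 to -0.15 without BMP4 replicate 1, and was -0.38 without noggin replicate 1. Krt84, a hair-type keratin, read 5.47 and 5.71 in noggin and 11.60 and 9.09 in BMP4, and S100a3 read 8.25 and 8.03 in noggin and 9.86 and 9.67 in BMP4. The 14 measured T cell markers each had their higher mean in noggin, the median difference being 0.17, or 0.10 to 0.31 with 1 array left out (without BMP4 replicate 1 and without BMP4 replicate 2), and the activation marker Cd69 was 1.39-fold higher. The median differences of 5 further lists turned sign when 1 array was left out. That of sweat gland markers was 0.067, and -0.061 without noggin replicate 1. That of fibroblast markers was -0.0066, and ranged from -0.14 without BMP4 replicate 1 to 0.20 without BMP4 replicate 2. That of neutrophil markers was 0.024, and at its lowest -0.040 without BMP4 replicate 2. That of endothelial markers was 0.036, and -0.042 without noggin replicate 1. That of melanocyte markers was 0.051, and -0.030 without BMP4 replicate 1.

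Some regulators known to act beside the 9 factors were picked after their values were seen. Zfp750, a p63 target that drives terminal differentiation, differed by -0.010, and Myc by 0.0099. Gata3, a factor of barrier lipids, read 9.38 and 9.44 in noggin and 8.49 and 9.25 in BMP4, a difference of 0.54 (limma, adjusted p = 0.934) that was 0.16 without BMP4 replicate 1.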
